A study of Mus musculus with 2 samples.

Results

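Chromosomes 14, 16 and 18 carry 457 of the 5942 Nacc1 peaks listed for N2A cells, a mouse neuroblastoma line, and they are described here as the autosomes with the fewest peaks. They were chosen by a measured value, the number of peaks per chromosome, so their low counts are a description and are given without a test. Chromosome 14 had 150 peaks, chromosome 18 had 151 and chromosome 16 had 156. The autosomes just outside this choice were chromosome 19 with 173 peaks and chromosome 17 with 180. The study provided 1 chromatin immunoprecipitation (ChIP) library, made with an antibody against Nacc1, and 1 input library made without antibody, both from N2A cells. No replicate of the ChIP library was analysed, so no value below carries a replicate error, and every interval covers counting error only.

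Nacc1 (nucleus accumbens associated 1) is a nuclear protein with a BTB/POZ domain, through which such proteins pair and recruit co-repressors, and a BEN domain, a fold that binds DNA. ChIP-seq finds the places where a protein sits on chromatin: DNA that is precipitated with the protein is sequenced, and a peak is a stretch where such reads pile up. Mouse autosomes have their centromere close to the end at which numbering starts. Positions with low coordinates are therefore called proximal here and positions with high coordinates distal. All positions are in the mm9 build. Genes, promoters and DNA sequence at these positions were not analysed here.

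By density, the 3 chromosomes were not equally sparse. Density is given as peaks per Mb of span, the span running from where the first peak of a chromosome begins to where its last one ends. Chromosome 14 had 1.29 peaks per Mb over 116 Mb and chromosome 16 had 1.64 over 95.1 Mb, the 2 lowest values of the 19 autosomes. Chromosome 18 had 1.93 peaks per Mb over 78.2 Mb, and chromosomes 3 (1.72) and 1 (1.87) lay below it. Its low count thus went with a short chromosome as well as with a low density. Relative to the 16 other autosomes pooled, at 2.62 peaks per Mb, the ratio was 0.49 for chromosome 14 (95% counting interval 0.42 to 0.58), 0.63 for chromosome 16 (0.53 to 0.73) and 0.74 for chromosome 18 (0.62 to 0.87). Among stronger peaks the ratio of chromosome 18 had an interval that included 1. The ratio was 0.80 (0.61 to 1.03) for peaks scoring 100 or more. It was 0.83 (0.66 to 1.03) at or above the median score of the list. The peaks covered 65.5 kb of chromosome 14, 69.7 kb of chromosome 16 and 67.8 kb of chromosome 18.

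**Figure D1:**
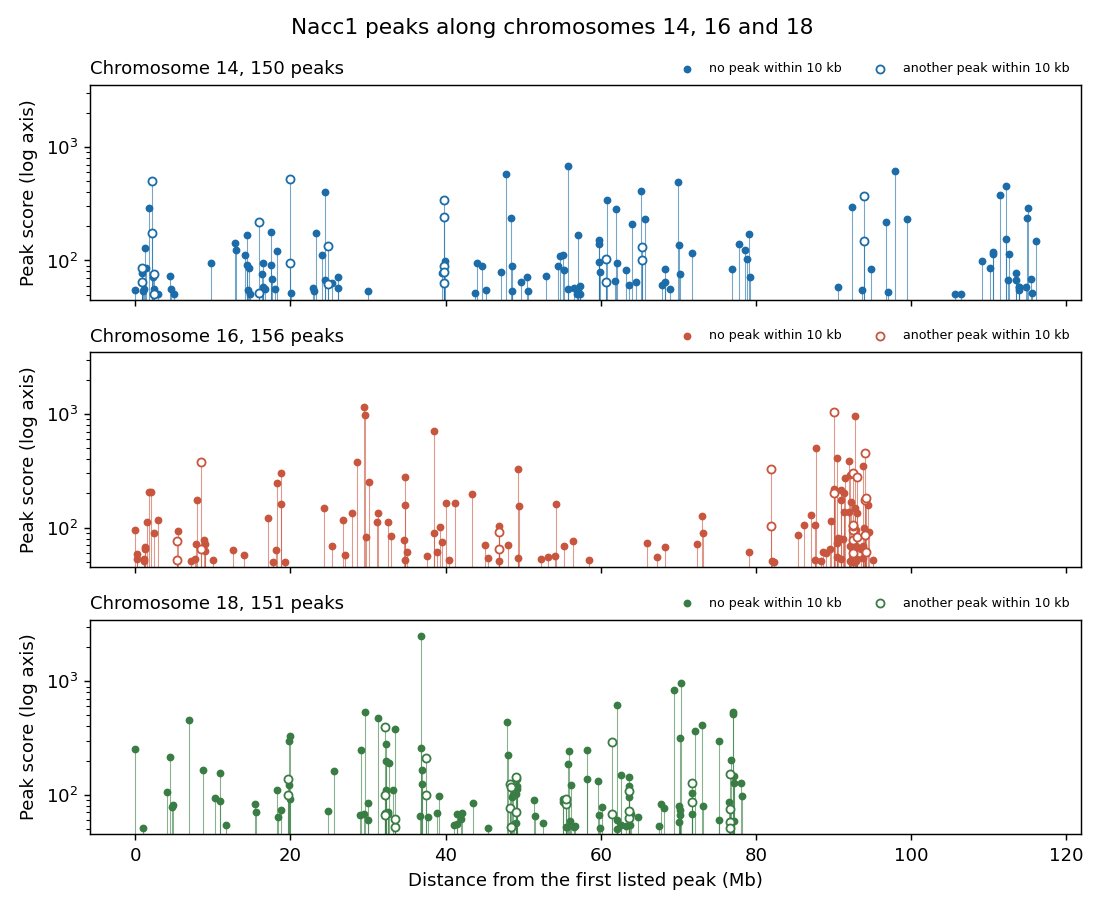
Score of each listed Nacc1 peak (log axis) against its distance in Mb from the first listed peak of chromosomes 14, 16 and 18, with open circles for peaks that have another peak within 10 kb. The strongest peak of chromosome 18 (score 2513) stands far above the others, and chromosome 16 is crowded at its distal end.

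Long stretches without a peak made up about as much of these chromosomes as the parts with peaks. Counting gaps of at least 2 Mb between neighbouring peaks, edge to edge, chromosome 14 had 14 such stretches, which took up 53.8% of its span. The parts before the first and after the last listed peak of a chromosome were not counted. The first peak begins at 7959561 on chromosome 14, at 3116021 on chromosome 16 and at 6033615 on chromosome 18. Chromosome 16 had 13 (48.3%) and chromosome 18 had 11 (42.1%). In the 16 other autosomes the share ran from 21.0% on chromosome 19 to 56.0% on chromosome 3, with a median of 37.1%. Only chromosome 3 of those 16 exceeded chromosomes 14 and 16, while 11 of the 16 lay below chromosome 18. These shares follow from the same counts that chose the chromosomes and are no separate evidence of sparsity.

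Chromosome 14 held the longest of these stretches. The first, from 87231779 to 98526313, ran for 11.3 Mb distal of the midpoint and was the fourth longest on any autosome. The next, from 38008110 to 47519338, ran for 9.51 Mb on the proximal side. They were followed by 107474635 to 113651408 (6.18 Mb), 79705162 to 84842561 (5.14 Mb) and 12955102 to 17678040 (4.72 Mb). These 5 stretches held 31.7% of the span of chromosome 14.

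On chromosome 16 the longest stretches lay in the middle and distal part, next to the crowded end. The longest ran from 61606177 to 69057962 (7.45 Mb), and a second ran from 76287546 to 82211324 (5.92 Mb). The proximal side had one of similar length, from 22417385 to 27388513 (4.97 Mb). The remaining members of the 5 longest were 71412779 to 75456104 (4.04 Mb) and 17147101 to 20263359 (3.12 Mb). From 60 to 90 Mb, chromosome 16 carried 14 peaks in all, with 2, 5 and 7 in the successive 10 Mb bins.

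Between its listed peaks, chromosome 18 had no stretch of 5 Mb or more. Its longest ran from 25924846 to 30922986 (4.998 Mb). The next were 17702459 to 21518121 (3.82 Mb), 31617816 to 34998095 (3.38 Mb), 39526117 to 42717253 (3.19 Mb) and 7033964 to 10150941 (3.12 Mb). All 5 lay on the proximal side, unlike those of chromosome 16. Of the other 16 autosomes, 12 had a longest stretch that exceeded this one.

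**Figure D2:**
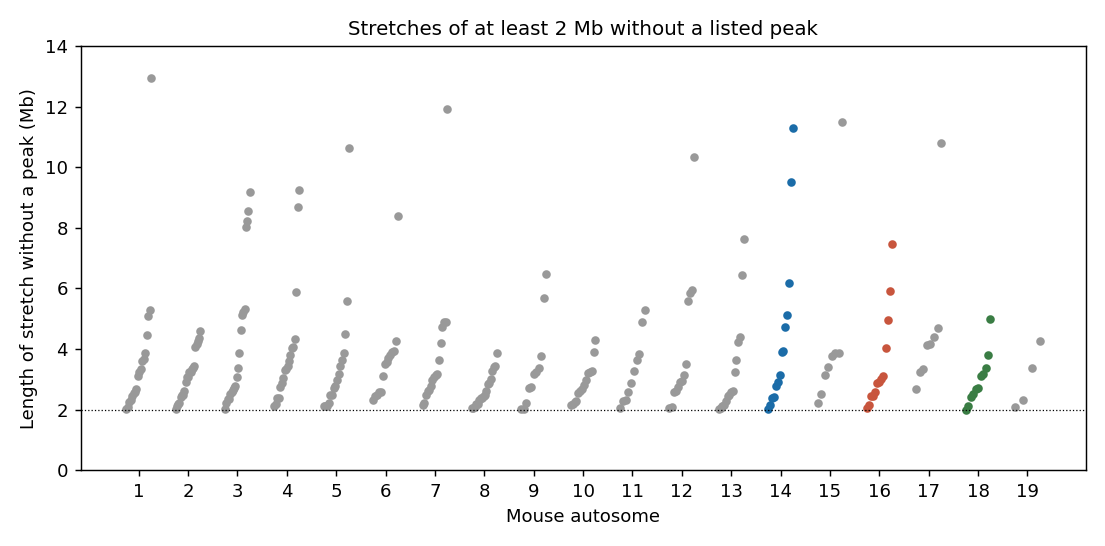
Length in Mb of every stretch of at least 2 Mb (dotted line) between neighbouring listed peaks, 1 point per stretch, for the 19 autosomes. Chromosomes 14, 16 and 18 are in blue, red and green and the others in grey. Chromosome 14 reaches 11.3 Mb and chromosome 18 stays below 5 Mb.

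Some of these stretches were separated by a single peak. On chromosome 14, 1 narrow peak with a score of 53.8, at 38007809 to 38008109, was the only one in 13.4 Mb between 34088112 and 47519338. Another, at 17678041 to 17678466 (426 bp, score 95.8), was the only one in 7.86 Mb between 12955102 and 20819462. Chromosome 16 had a single peak at 61605884 to 61606176 (293 bp, score 51.6) in 9.51 Mb, and a single peak at 82211325 to 82211687 (363 bp, score 60.5) in 8.82 Mb. The lowest score in the list was 50. Chromosome 18 had no such single peak. Chromosomes 14, 16 and 18 together thus had 4 single peaks for 38 stretches, and the 16 other autosomes had 28 for 224. Single peaks made up 1.33% of the peaks of chromosome 14 and 1.28% of those of chromosome 16. On the 16 others that share ran from 0% to 1.42%, so such peaks were not particular to these chromosomes. This description was chosen after the stretches had been seen. Read coverage and mappability within the stretches were not analysed here.

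By their 5 fullest windows, chromosomes 16 and 18 had their peaks gathered into few regions more than chromosome 14. A fixed number of windows is a larger part of a shorter chromosome. The 5 fullest windows of 1 Mb held 32.7% of the peaks of chromosome 16, 28.5% of chromosome 18 and 20.0% of chromosome 14, against 12.9% to 32.9% (median 21.8%) on the 16 other autosomes. At least 50% of the peaks lay in 12 of 96 windows on chromosome 16 (12.5%), in 11 of 79 on chromosome 18 (13.9%) and in 18 of 118 on chromosome 14 (15.3%). The median of the others was 14.3%, so this measure did not set the 3 chromosomes apart. The order of chromosomes 14 and 18 turned with 5 Mb windows (29.2% and 31.25%) and at scores of at least 100 (10.2% and 12.7%). It was kept with windows of 500 kb (10.3% and 9.55%) and without the final 10 Mb of each span (14.8% and 13.0%). After peaks within 1 kb were merged the values were nearly equal (15.25% and 15.19%). Windows with no peak made up 44.9% of chromosome 14, 36.5% of chromosome 16 and 35.4% of chromosome 18, and 25.6% to 50.6% of the others.

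Crowded windows were scarce on chromosomes 14 and 16. Windows with 5 or more peaks numbered 5 of 118 on chromosome 14 (4.24%) and 6 of 96 on chromosome 16 (6.25%), below the 10.3% to 29.5% of the 16 other autosomes. Chromosome 18, with 11 of 79 (13.9%), lay above 3 of them. Such windows held 20.0%, 36.5% and 51.0% of the peaks of chromosomes 14, 16 and 18, against 41.0% to 79.6% on the others. Over the 16 others pooled the share was 63.1%, and over the 3 chromosomes pooled it was 35.9%. Windows with 10 or more peaks numbered 3 of 293 on these 3 chromosomes (1.02%) and 111 of 2081 on the others (5.33%). These counts move with density and describe the same scarcity in another way.

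The fullest windows of chromosome 16 formed 1 block. They were the 5 consecutive windows from 93000001 to 98000000, with 8, 7, 17, 10 and 9 peaks in order of position. The window from 95000001 to 96000000, with 17 peaks, was the most crowded of the 3 chromosomes and held a peak with a score of 959. In the window from 93000001 to 94000000 the median score was 208 and 5 of 8 peaks reached a score of 100.

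The last 10 Mb of the span of chromosome 16, from 88257835 to 98257834, held 63 of its 156 peaks, or 40.4% (Clopper-Pearson interval 32.6% to 48.5%), in 10.5% of its length. That was the highest share of the 19 autosomes, ahead of chromosome 19 with 36.4% (29.2% to 44.1%) and chromosome 8 with 36.0% (32.1% to 40.0%). The intervals of these 3 overlap. Inside these 10 Mb chromosome 16 had 6.30 peaks per Mb, above the median of 4.00 for the ends of the 16 other autosomes. Over the rest of its span it had 1.09 peaks per Mb, the lowest value of any autosome and below that of chromosome 14 (1.22). The median score was 98.6 at the end (order-statistic interval 80.7 to 136) and 76.7 in the rest (67.8 to 92.9), and these intervals overlap. The split at 10 Mb was chosen after the crowded block had been seen.

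The fullest windows of chromosome 18 were scattered. They lay at 38000001 to 39000000 with 10 peaks, at 69000001 to 70000000 with 9, and at 54000001 to 55000000, 61000001 to 62000000 and 82000001 to 83000000 with 8 each. Their median scores ran from 67.5 to 105, and the highest score in them was 399.6. These fullest windows thus did not hold the strongest peaks of chromosome 18. Some of its less full windows with 5 or more peaks did hold such peaks, and others did not.

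Chromosome 14 had no crowded region of this kind. Its 2 fullest windows, at 10000001 to 11000000 and 47000001 to 48000000, held 7 peaks each, which was the lowest maximum of any autosome. Then came 22000001 to 23000000 with 6 peaks, and 32000001 to 33000000 and 121000001 to 122000000 with 5 each. The window at 47000001 begins just before the end of the 9.51 Mb stretch without a peak. In the window at 121000001 no peak reached a score of 100, and the highest was 77.7.

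Proximal and distal shares differed between the 3 chromosomes. Beyond the midpoint of the span lay 64 of 150 peaks of chromosome 14, or 42.7% (Clopper-Pearson interval 34.6% to 51.0%), 85 of 156 on chromosome 16, or 54.5% (46.3% to 62.5%), and 96 of 151 on chromosome 18, or 63.6% (55.4% to 71.2%). The share over all 19 autosomes was 61.3%. Chromosome 14 had the lowest distal share of the 19 autosomes, next to chromosome 9 with 45.5% (39.7% to 51.3%), and its interval did not reach 61.3%. Chromosome 18 lay near the share of all autosomes, so sparse chromosomes did not share a position for their peaks. With the midpoint taken from base 1 the distal share of chromosome 14 was 50.7% (42.4% to 58.9%), since its first listed peak begins only at 7959561. It was still the lowest of the 19 by that measure. Among stronger peaks this was lost: at or above the median score of the list the share was 50.6% (39.1% to 62.1%), above 2 of the 16 others, and at a score of at least 100 it was 57.1% (43.2% to 70.3%), above 5 of them.

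The shape along the span showed where each chromosome was empty. On chromosome 14, 72.0% of the peaks lay in the first 60% of the span, above the range of the other autosomes (27.7% to 62.0%), and 1.33% lay between 70% and 80%. Chromosome 16 had 51.9% of its peaks by 60% of the span and 60.3% by 90%, and the remainder lay in the last 10%. Chromosome 18 had 20.5% of its peaks by 40% of the span and 84.1% by 90%.

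**Figure D3:**
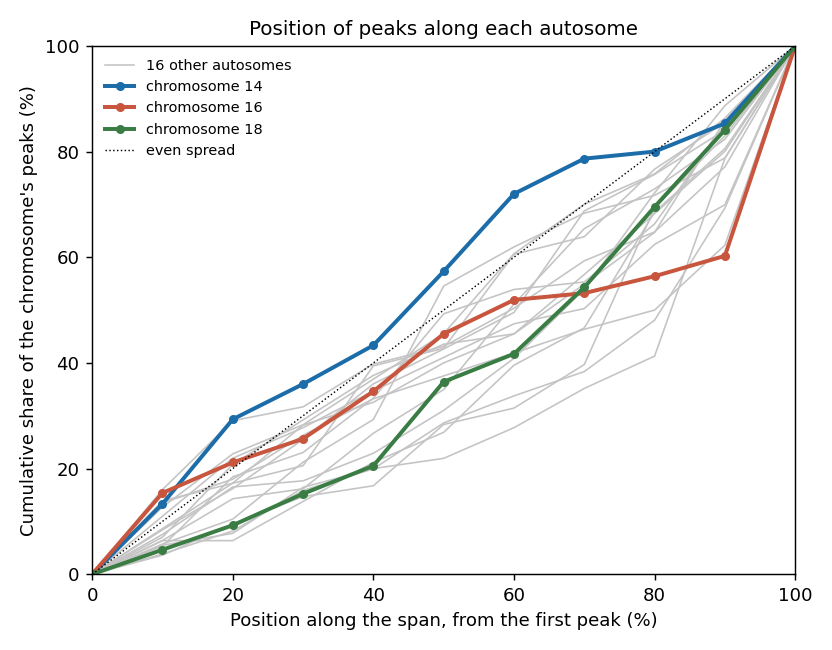
Cumulative share of a chromosome's peaks (percent) against position along its span (percent from the first peak), with chromosomes 14, 16 and 18 as thick lines, the 16 other autosomes in grey and an even spread dotted. Chromosome 14 has 72.0% of its peaks by 60% of the span, while chromosome 16 has 60.3% by 90% of the span.

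The score of a peak is, in the output of MACS 1.4, −10 times the log10 of the p-value the peak caller gave it, so 50 stands for 1e-05 and 100 for 1e-10. It is the authors' value and was used only to describe peaks within this list. Few peaks per chromosome did not go with a low median score. The median score was 84.5 on chromosome 14 (order-statistic interval 75.7 to 94.7), 85.3 on chromosome 16 (73.5 to 98.6) and 90.3 on chromosome 18 (78.5 to 102), against 81.4 (79.3 to 83.2) for the 16 others pooled and 72.3 to 89.0 among them. The median of chromosome 18 was the highest of the 19 autosomes. Each interval reaches into that of the pooled autosomes, and no difference in median score was established. The medians of chromosomes 14, 16 and 18 lay above those of 13, 14 and 16 of the 16 others. Without the final 10 Mb of each span they lay above 15, 3 and 16, and that of chromosome 16 was 76.7.

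Scores of 100 or more belonged to 56 peaks of chromosome 14 (37.3%), 65 of chromosome 16 (41.7%) and 63 of chromosome 18 (41.7%), near the 38.5% of all autosomal peaks. At 200 or more the numbers were 25 (16.7%), 29 (18.6%) and 30 (19.9%). The last 2 shares were the highest of the 19 autosomes, but their intervals, 12.8% to 25.6% and 13.8% to 27.1%, included the 15.5% of the others. At 500 the numbers were 5, 6 and 7, together 18 peaks or 3.94% (2.35% to 6.15%) against 4.52% elsewhere.

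The strongest peak of the 3 chromosomes lay on chromosome 18 at 42864170 to 42864966 (797 bp), with a score of 2513. It lay just beyond the end of a stretch of 3.19 Mb without a peak. The next on this chromosome were at 76428036 to 76428899 (score 969) and 75479474 to 75480024 (score 844), within 1 Mb of each other. Below them came 68163919 to 68164557 (score 622), 83099813 to 83100319 (536), 35600266 to 35600944 (533) and 83071910 to 83072370 (517). The peaks at 83099813 and 83071910 lay 27.4 kb apart, and none of these 7 had another peak within 10 kb.

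On chromosome 16 the 4 strongest peaks came in 2 areas. The strongest, at 32598204 to 32599081 (score 1156), lay 78.4 kb from the third, at 32677521 to 32678025 (score 984). The second and the fourth, at 93117842 to 93118507 (score 1047) and 95877400 to 95878068 (score 959), lay in the crowded distal block. The fifth, at 41556536 to 41557148, had a score of 706, and a sixth, at 90901028 to 90901884, had 504. Both lay outside these areas.

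Chromosome 14 had the lowest maximum score of the 19 autosomes. Its strongest peak, at 63681057 to 63681514, was 458 bp wide and had a score of 681. The others above 500 lay at 105899103 to 105899737 (score 613), 55776289 to 55777039 (579), 27882452 to 27883202 (526) and 10109163 to 10109965 (505). The peak at 105899103 was isolated, with its nearest neighbour 911 kb away.

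Scores on the 2 sides of the midpoint differed in direction between the chromosomes. On chromosome 14 the emptier distal side had the higher median, 100.4 (79.8 to 131) against 76.6 (65.0 to 88.7) proximally, and 32 of 64 distal peaks but 24 of 86 proximal peaks reached a score of 100. On chromosome 18 the emptier side was the proximal one, and it also had the higher median, 99.9 (80.7 to 157) against 84.5 (70.4 to 98.6). On chromosome 16 the more crowded distal side had the slightly higher median, 86.4 against 83.2. The strongest peaks did not follow the medians: of those with scores of 500 or more, chromosome 14 had 4 proximally and 1 distally, chromosome 18 had 2 and 5, and chromosome 16 had 3 on each side. The distal minus the proximal median was thus 23.8 on chromosome 14, −15.4 on chromosome 18 and 3.11 on chromosome 16, while among the other autosomes it ran from −11.3 on chromosome 3 to 16.03 on chromosome 7. The intervals of both sides overlap on each of the 3 chromosomes, and the differences were not tested.

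Peaks of these chromosomes were slightly narrower than those of the others pooled. The median width was 398.5 bp on chromosome 14 (interval 378 to 426), 391 bp on chromosome 16 (376 to 439) and 399 bp on chromosome 18 (377 to 450). Pooled, the median was 398 bp (388 to 415) against 426 bp (421 to 431) for the 16 others, and these intervals do not overlap. Without chromosome 8, left out after its widths had been seen, the others had 418 bp (414 to 423), and the intervals overlap. The interval of each of the 3 chromosomes includes that value. Among peaks with a score of at least 100, the medians of chromosomes 14, 16 and 18 exceeded those of 2, 4 and 4 of the 16 others. Among the single autosomes only chromosome 3, with 392 bp, lay in the same range, and chromosome 8 was highest with 503.5 bp. Peaks wider than 1000 bp numbered 3, 1 and 2 on chromosomes 14, 16 and 18, or 1.31% of the 457, and 3.02% elsewhere.

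The 2 widest peaks of each chromosome had scores from 118 to 459, mostly well above the chromosome's median but below its strongest peaks. On chromosome 14 they lay at 120226371 to 120227617 (1247 bp, score 453) and 118544314 to 118545535 (1222 bp, score 118). On chromosome 16 they lay at 31643697 to 31645031 (1335 bp, score 380) and 85117582 to 85118527 (946 bp, score 328.5). On chromosome 18 they lay at 12890203 to 12891303 (1101 bp, score 459) and 78198479 to 78199548 (1070 bp, score 364). The peak at 12890203 directly ended a stretch of 2.001 Mb without a peak.

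For peaks of middle width, the pooled median score of these chromosomes was above that of the others at equal width. This comparison was chosen after widths and scores had been seen. Among peaks wider than 300 and up to 400 bp the pooled median score was 67.5 (64.7 to 70.4) against 61.5 (60.7 to 62.2) for the 16 others. Among those over 400 and up to 500 bp it was 98.3 (86.7 to 111) against 84.8 (83.1 to 87.2), where the intervals overlap, and among those over 500 and up to 750 bp it was 204 (163 to 239) against 148 (141 to 153). Up to 300 bp the medians were close, 56.3 against 55.5, and over 750 and up to 1000 bp they were 335 for 18 peaks against 281. Over 1000 bp the order was the other way, 389 for 6 peaks against 561. Chromosomes 16 and 18 had the highest medians of the 19 autosomes over 400 and up to 500 bp (106 and 98.7). The same held over 500 and up to 750 bp (209 and 202). Chromosome 14 was highest over 300 and up to 400 bp (73.3). It ranked 5 of 19 over 400 and up to 500 bp (94.7) and 7 of 19 over 500 and up to 750 bp (168). The lowest median over 500 and up to 750 bp was that of chromosome 8, 113 (101 to 122), the autosome with the most peaks. Peaks are not independent replicates, and coverage of the input library along the chromosomes was not analysed here.

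**Figure D4:**
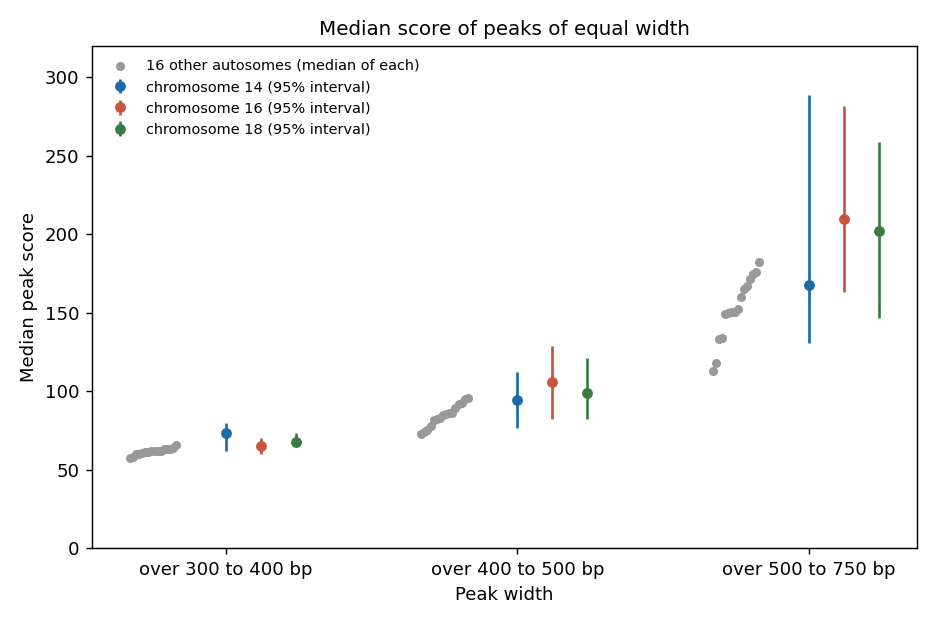
Median peak score for peaks of over 300 to 400, over 400 to 500 and over 500 to 750 bp, with chromosomes 14, 16 and 18 as coloured points with 95% order-statistic intervals and the 16 other autosomes as grey points without intervals. In the widest class chromosomes 16 and 18 (209 and 202) lie above all grey points, while chromosome 14 (168) lies among them.

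Taken over all scores, neighbours within 10 kb were less frequent on each of the 3 chromosomes than on any of the 16 others. Another peak within 10 kb, edge to edge, was found for 23 of 150 peaks on chromosome 14, or 15.3% (Clopper-Pearson interval 9.98% to 22.1%), 23 of 156 on chromosome 16, or 14.7% (9.58% to 21.3%), and 28 of 151 on chromosome 18, or 18.5% (12.7% to 25.7%). Over all 19 autosomes the share was 28.7%, and the 16 others ran from 20.2% on chromosome 1 to 38.4% on chromosome 8. The 3 shares were thus the 3 lowest, and none of the intervals reached 28.7%. Fewer peaks per Mb leave fewer close neighbours, so this share is not independent of how the chromosomes were chosen. For chromosome 18 the low rank held at 10 kb only among the fixed distances tried: within 1 kb its share (9.93%) was above 11 of the 16 others, and within 50 kb (54.3%) above 8. Chromosomes 14 and 16 had the lowest shares at both of these distances.

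The order of the neighbour shares was not the same throughout as the order of densities. Chromosome 3, with 1.72 peaks per Mb, had a share of 29.3%, while chromosome 18, with 1.93, had 18.5% and chromosome 1, with 1.87, had 20.2%. When the distance was lengthened in proportion to each chromosome's mean spacing, to 19.3 kb on chromosome 14, 15.2 kb on chromosome 16 and 12.9 kb on chromosome 18, the shares were 17.3% (11.6% to 24.4%), 19.2% (13.4% to 26.3%) and 23.2% (16.7% to 30.7%). The others then ran from 21.7% on chromosome 11 to 33.8% on chromosome 5, with a median of 29.4%. Chromosomes 14 and 16 remained the lowest by this measure, and chromosome 18 fell among the others. The measure was added after the first shares had been seen. The intervals of chromosomes 14 and 16 include the 21.7% of chromosome 11, and whether the shares differ beyond density was not tested.

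**Figure D5:**
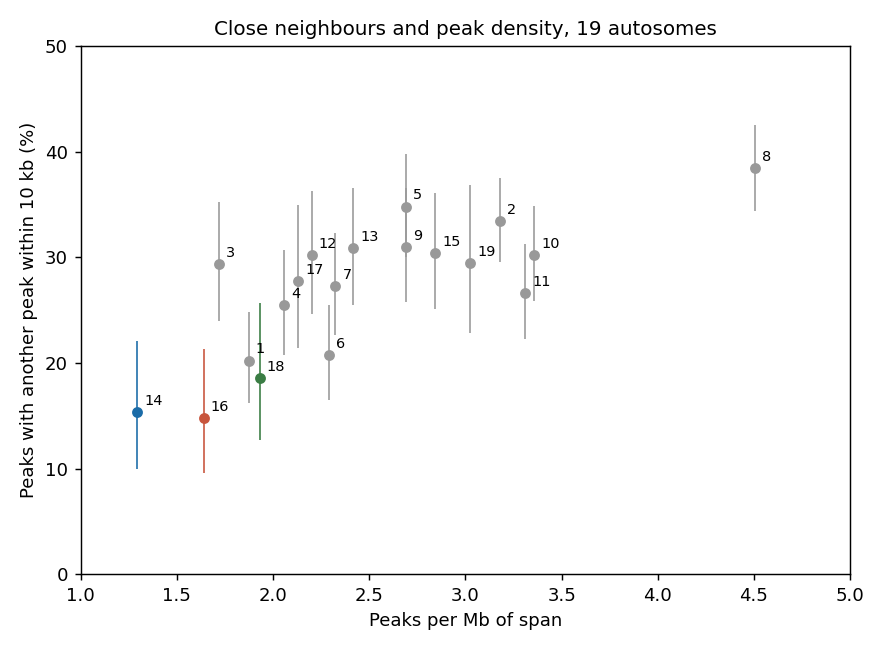
Share of peaks with another peak within 10 kb (percent, with 95% Clopper-Pearson intervals) against peaks per Mb of span for the 19 autosomes, numbered, with chromosomes 14, 16 and 18 in blue, red and green. These 3 have the lowest shares (15.3%, 14.7% and 18.5%), and chromosome 3 has 29.3% at a density close to theirs.

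Where neighbours occurred differed within chromosomes. On chromosome 14, 17 of the 23 peaks with a neighbour lay on the proximal side. In the last 10 Mb of its span 0 of 21 peaks had one. This allows a share of up to 14.3% when the limit is taken as 3 counts. In the last 10 Mb of the 16 other autosomes the share ran from 21.6% to 56.25%. These ends were not equally dense: that of chromosome 14 had 2.10 peaks per Mb, and those of the 16 others had 2.70 to 20.8. The shares were not compared at equal density. On chromosome 16, 15 of the 23 lay in the last 10 Mb, and over the rest of the chromosome the share was 8.60% (8 of 93 peaks). On chromosome 18 the shares were 19.8% distally and 16.4% proximally. Among the 63 peaks of chromosome 18 with a score of at least 100, 0 had another such peak within 10 kb, which by the same limit allows a share of up to 4.76%. At that score the share was 14.3% on chromosome 14 and 12.3% on chromosome 16. On the 16 others it ran from 11.97% to 33.7%, with a median of 18.4%. These shares, too, were not compared at equal density.

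Groups were small. The 74 peaks with a neighbour made up 34 groups. These were 29 pairs and 5 groups of 3 or more peaks (14.7% of the groups), against 156 of 684 groups (22.8%) on the 16 other autosomes. Chromosomes 14 and 16 each had 1 of 11 groups with 3 or more peaks. Chromosome 18 had 3 of 12, a share no lower than that of the others. The largest, with 4 peaks, lay on chromosome 18 at 82653091 to 82662151, with scores from 50.7 to 152. A group of 3 on the same chromosome, at 38176247 to 38178146, spanned 1.90 kb with gaps of 13 and 32 bp and a highest score of 399.6, and such short gaps may divide 1 site. The third group of chromosome 18, at 69729660 to 69735930, had scores from 63.1 to 109. Chromosome 14 had 1 group of 3, at 47748949 to 47756603, with scores from 89.1 to 344, in one of its 2 fullest windows. Chromosome 16 had 1 group of 3, at 97227342 to 97236689, with scores from 86.4 to 457, in its distal block.

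Very short gaps made up part of the neighbours of chromosome 18, and whether such peaks are separate sites was not tested. Of its 16 gaps within 10 kb, 8 were of at most 1 kb and 4 of at most 100 bp. Chromosome 14 had 4 of 12 gaps within 1 kb and chromosome 16 had 3 of 12, against 28.7% of the 928 such gaps on the other autosomes. After peaks within 1 kb were merged, the share with a neighbour on chromosome 18 was 9.79%, close to 10.3% on chromosome 14 and 11.1% on chromosome 16. All 3 stayed below the range of the other autosomes treated the same way, 14.2% to 30.8%.

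Peaks with a neighbour had somewhat higher scores on 2 of the 3 chromosomes. The median was 102 against 82.5 for isolated peaks on chromosome 14, and 104 against 80.7 on chromosome 16. On chromosome 18 it was 89.3 against 90.3. Over the 16 others the medians were 95.9 and 76.0. With 23 to 28 peaks with a neighbour per chromosome, differences of this size could not be resolved.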

How the data were processed

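The file analysed is the list of peaks of the Nacc1 ChIP library. The submitters' processing notes name MACS 1.4, Bowtie2, SAMtools and CASAVA 1.8, and the build mm9. Parameters, read filters, the number of mapped reads and whether the input was the control are not given in these sources, so the depth is unknown. The score per peak is as the authors deposited it.

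Starts were converted to 1-based positions. The members and lists were chosen with earlier results of these data known. Windows of 1 Mb were filled by peak midpoints. Intervals (95%) are Clopper-Pearson for shares, order-statistic for medians and conditional binomial for ratios of counts. They treat peaks as independent, which neighbours are not, and so may be too narrow. No test was run, since there is 1 list and peaks are not replicates. Regions were named by rule: per chromosome the 5 highest scores and all of at least 500, the 2 widest peaks, the 5 longest stretches, the 5 fullest windows and all groups of at least 3 peaks. Single peaks between stretches, the last 10 Mb and crowded windows fall outside it. Alternatives changed the score threshold, span, window, distance, stretch length, width filter and merging. Functions were tested on simulated lists. SciPy 1.17.1, NumPy 2.4.6, Matplotlib 3.10.9 and pandas 2.3.3 were used in Python 3.11.15.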

Additional observations from a re-analysis of the deposited data

How the results depend on the processing

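Of 87 values recomputed for chromosomes 14, 16 and 18, 65 stayed within the interval of the reported value and 22 did not. Counts of stretches were held to within 1.5 times. For windows holding 50% of the peaks, a Clopper-Pearson interval on the share of windows set the limit. Those windows were picked as the fullest, so that limit is only a convention and measures no counting error. The cause of a change was not tested where none is given. By construction, stretches of at least 1 Mb numbered 26, 29 and 26 and those of at least 5 Mb 4, 2 and 0, neighbours within 1 kb were found for 5.33%, 3.85% and 9.93% of peaks and within 50 kb for 32.0%, 43.6% and 54.3%, and 50% of the peaks took 29.2% of 5 Mb windows on chromosome 14 and 31.25% on chromosome 18. At a score of at least 100 the median widths were 527.5, 538 and 538 bp, the distal share of chromosome 14 was 57.1%, above that of 5 of the 16 other autosomes, and the neighbour share of chromosome 18 was 0%. Merging peaks within 1 kb brought the neighbour share of chromosome 18 over all scores from 18.5% to 9.79%. Without the final 10 Mb of each span, added after the data were seen, the density ratio of chromosome 16 was 0.46 and its neighbour share 8.60%. Median scores stayed within their intervals in every setting run. Without the final 10 Mb, however, that of chromosome 16 lay above 3 of the 16 others, against 14 with it. No paired analysis was possible because there is 1 ChIP library, and for the same reason no replicate could be left out.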

Other observations

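Over all scores, 74 of 457 peaks on chromosomes 14, 16 and 18 had a close neighbour, or 16.2%, against 29.7% on the 16 others. With the 3 chromosomes pooled, a lower share was also seen among strong peaks. Of their 84 peaks with a score of at least 200, 16 had another peak of any score within 10 kb, or 19.05% (Clopper-Pearson interval 11.3% to 29.1%), against 321 of 838, or 38.3% (35.0% to 41.7%), on the 16 other autosomes. By chromosome the numbers were 6 of 25 on chromosome 14, 7 of 29 on chromosome 16 and 3 of 30 on chromosome 18. The intervals of chromosomes 14 (9.36% to 45.1%) and 16 (10.3% to 43.5%) include 38.3%, and that of chromosome 18 (2.11% to 26.5%) does not. At a score of at least 500 they were 3 of 18 on these chromosomes, or 16.7% (3.58% to 41.4%), and 101 of 245, or 41.2% (35.0% to 47.7%), elsewhere. The share depends on the local number of peaks, and whether it differs beyond that was not tested.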
